A study of Mus musculus with 26 samples.

Results

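The miR-23, miR-27 and miR-24 clusters were followed across 26 small RNA libraries from the CA1 region of the mouse hippocampus. The members were chosen by name, as 10 mature miRNAs cut from these 2 clusters, out of 1915 entries in the deposited count table. All 10 passed the filter on low counts, which kept 605 entries in all. The mice were CamkdeltaC animals, whose transgene is a form of CaMKII delta that causes heart failure, and their littermates. The sources used here do not name the promoter that drives the transgene.

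The groups were 9 libraries from wild type littermates on vehicle, 7 from transgenic mice on vehicle and 10 from transgenic mice on Vorinostat, an inhibitor of histone deacetylases also called SAHA. Drug or vehicle was given in the drinking water for 4 weeks from an age of 2 months, until 3 months of age. Both sexes were used, with no sex recorded per mouse in the sources used here. Wild type mice on Vorinostat were not analysed here. Nothing in the labels says that each library is a separate mouse, so the p-values measure the spread between libraries.

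A microRNA guides an Argonaute protein to messenger RNAs that pair with its seed, the bases near its 5′ end. Vertebrates carry this cluster as a pair of copies, one with miR-23a, miR-27a and miR-24-2 and one with miR-23b, miR-27b and miR-24-1, and each copy is transcribed as one primary RNA that is cut into separate hairpins. Both arms of a hairpin can be kept, and usually one, the guide, is far more abundant. The clusters are known from blood vessels, muscle and heart, and in the brain miR-23 has been described in astrocytes and in myelinating oligodendrocytes.

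The mature sequences show which members can be told apart and which share a seed. They were taken from RefSeq (GRCm38.p6), where 9 of the 10 members matched by name and miR-23b-3p did not. How far reads of miR-23b-3p can be told apart from those of miR-23a-3p was therefore not checked. Capitals mark the seed, bases 2 to 8 from the 5′ end.
mmu-miR-23a-3p: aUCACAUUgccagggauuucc
mmu-miR-27a-3p: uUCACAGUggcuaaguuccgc
mmu-miR-27b-3p: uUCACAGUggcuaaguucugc
mmu-miR-24-3p: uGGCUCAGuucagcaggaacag
mmu-miR-24-1-5p: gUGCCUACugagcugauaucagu
mmu-miR-24-2-5p: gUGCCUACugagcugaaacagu
mmu-miR-27a-5p: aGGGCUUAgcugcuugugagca
mmu-miR-27b-5p: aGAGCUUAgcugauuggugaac
mmu-miR-23b-5p: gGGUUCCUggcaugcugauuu
The guides miR-27a-3p and miR-27b-3p have the same seed and differ by one substitution, C19U, counted from the 5′ end with the miR-27a-3p base first. The seed of miR-23a-3p shares 6 of 7 positions with that of miR-27. The 5p arms of miR-27a and miR-27b differ in the seed by G3A. The arms miR-24-1-5p and miR-24-2-5p share their first 16 bases and differ after them, so reads of these 5p arms can be assigned to a copy.

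The guide miR-24-3p is cut from both copies and cannot be assigned to either. The 2 hairpins are shown because they hold it in full, and capitals mark miR-24-3p.
Mir24-1: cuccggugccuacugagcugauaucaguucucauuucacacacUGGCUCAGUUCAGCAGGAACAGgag
Mir24-2: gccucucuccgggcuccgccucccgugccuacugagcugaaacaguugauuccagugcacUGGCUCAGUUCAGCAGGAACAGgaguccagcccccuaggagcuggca
The first cluster lies on the plus strand of chromosome 8 (GRCm38), with Mir23a at chr8:84208518-84208592, Mir27a at chr8:84208672-84208758 and Mir24-2 at chr8:84208815-84208921. It spans 404 bases between the protein-coding genes Nanos3 and Zswim4, and Mir24-2 touches an exon of the long non-coding RNA Gm26532. The second lies on the plus strand of chromosome 13, with Mir23b at chr13:63300484-63300557, Mir27b at chr13:63300712-63300784 and Mir24-1 at chr13:63301208-63301275. It spans 792 bases inside 2010111I01Rik, a protein-coding gene, on the opposite strand to Fancc. Mir23b is intronic there, while Mir27b and Mir24-1 overlap exons of transcripts of 2010111I01Rik, none of which is annotated as protein-coding at that exon.

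The libraries held 585188 to 17628404 counts in wild type, 6014711 to 24767468 in transgenic vehicle and 3892718 to 15693842 in transgenic Vorinostat. Wild type replicate 1, the shallowest, and Vorinostat replicate 8 stood apart on the first principal component of log2 CPM, which held 59.0% of the variance, with scores of -86.2 and -28.1 against -11.8 to 14.2 in the others. CPM is the count divided by the library total, scaled by trimmed-mean factors and multiplied by 1e6. Several results, but not all, are given with and without these 2 libraries. The raw count columns carry a label L001 or L002, taken here as a sequencing lane, and each lane held 13 libraries with all 3 groups. The groups were not balanced over the lanes. In L001 and L002 there were 6 and 3 wild type, 3 and 4 transgenic vehicle, and 4 and 6 Vorinostat libraries.

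For the tissue check, 9 lists of marker miRNAs were read. No member of any list passed the edgeR test in any comparison, where 0.0% of the 605 tested entries did, so this test does not set the lists apart. The most abundant neuronal markers, miR-128-3p and miR-9-5p, had 229308 and 126121 CPM on average (n = 26). Astrocyte markers were led by miR-29a-3p at 5907 CPM and miR-21a-5p at 1540, vessel markers by miR-126a-3p at 5907 and miR-143-3p at 3694, and oligodendrocyte markers by miR-219a-2-3p at 943 and miR-338-5p at 275. Lower levels were found for the lists of red blood cells (miR-486a-5p and miR-486b-5p, with identical counts, 541 CPM), choroid plexus (miR-204-5p, 433, and miR-200b-3p, 89.0) and microglia or leukocytes (miR-342-3p, 109, and miR-150-5p, 76.1). The list for stressed heart was led by miR-21a-5p and miR-29b-3p (1298 CPM) and that for other organs by miR-1a-3p (451) and miR-133a-3p (10.9). A further 3 heart muscle miRNAs were singled out after the values were seen. Of these, miR-499-5p had 8.14 CPM, miR-208a-3p had 2 reads in all and miR-208b-3p had 0. Not every muscle miRNA was this scarce, since miR-1a-3p, placed here with other organs, had 451 CPM. The median log2 difference of a list ran from -0.08 to 0.41 for the transgene and from -0.29 to 0.18 for Vorinostat.

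The 10 miRNAs together took 0.812% of all counts (SD 0.175, n = 26), from 0.207% in wild type replicate 1 to 1.02%. Guide arms dominated: miR-24-3p held 45.4% of the counts of the 10 and miR-27b-3p 40.0%. The mean level over 26 libraries was 3702 CPM (SD 589) for mmu-miR-24-3p and 3159 (SD 752) for mmu-miR-27b-3p, and the first was the higher in 21 libraries. mmu-miR-27a-3p followed at 592 CPM (SD 129) and mmu-miR-23b-3p at 318 (SD 118), and the first was the higher in all 26 libraries. The next were miR-24-2-5p at 117 CPM (SD 21.3), miR-24-1-5p at 57.7 (SD 11.5) and miR-23a-3p at 56.3 (SD 30.1), and the last pair did not differ beyond their spread. The remaining 5p arms were scarce, with miR-27b-5p at 10.8 CPM (SD 2.46), miR-27a-5p at 6.92 (SD 5.86) and miR-23b-5p at 2.71 (SD 1.09). The 5p arm of miR-23a had 35 reads in all, in 10 libraries, and was not tested. A count here is of reads without molecular identifiers, so depth covers counting error only.

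The level of miR-24-3p has a further limit. Its count was an even number in 24 of 26 libraries, where 143 other abundant miRNAs with 1 locus were even in 50.9% of libraries on average and in 21 of 26 at most. Another 20 abundant miRNAs with 2 loci were even in 59.8%, with 2 of them at 20 libraries or more. Counting each read once at both loci would give even counts, and this was not tested. With the count divided by 2, miR-24-3p would stand at 1851 CPM (SD 295, n = 26), below miR-27b-3p in all 26 libraries. With all such counts divided by the number of loci, an alternative chosen after seeing the data, its log2 differences between groups moved by no more than the errors given below.

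**Figure D1:**
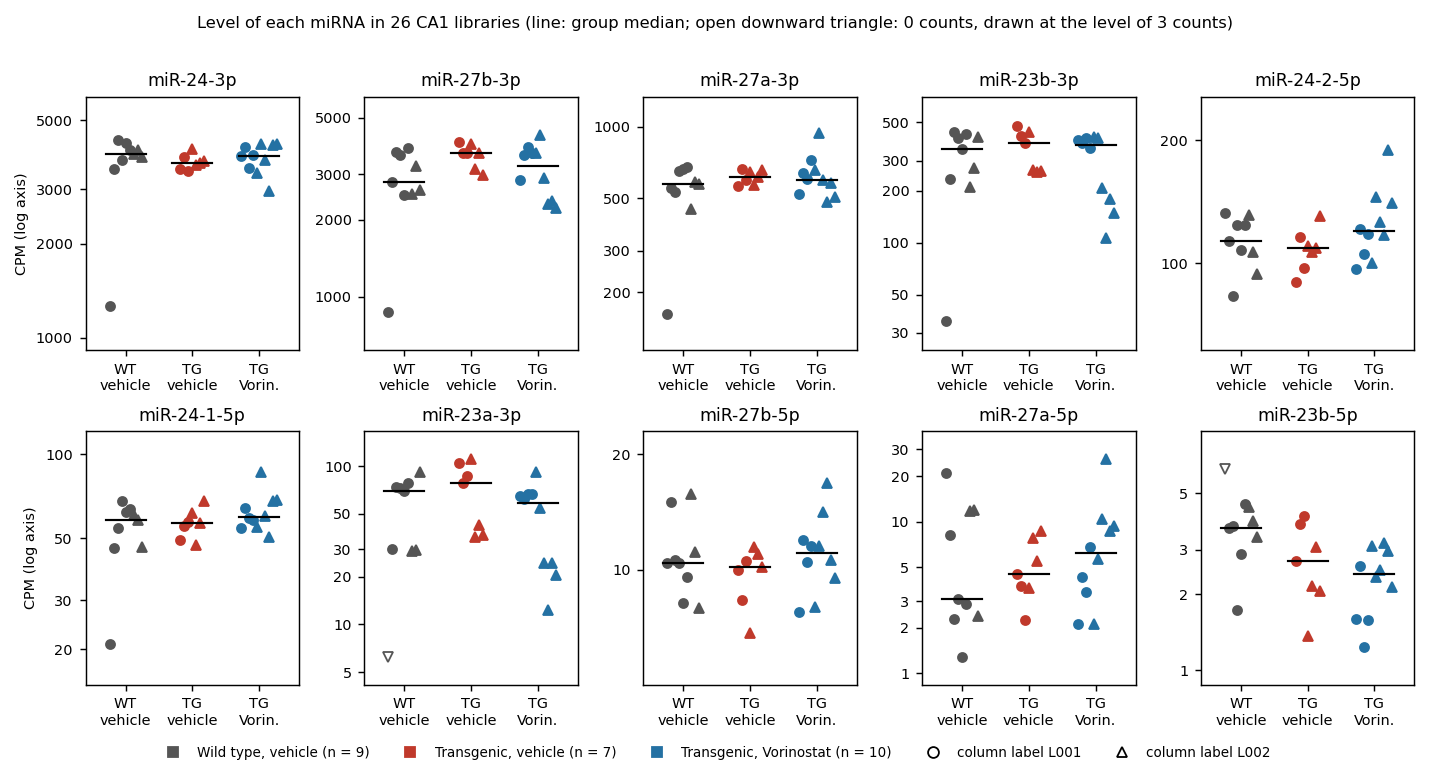
Level of each miRNA (CPM, log axis) in the 26 libraries by group, with wild type (WT) and transgenic (TG) mice on vehicle or Vorinostat (Vorin.), 1 point per library, the group median as a line and the marker shape giving the lane label. Every miRNA overlaps between all groups, miR-24-3p is the tightest apart from wild type replicate 1, and miR-23a-3p has low and high libraries in each group.

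Constancy differed greatly between the members. Over the 24 libraries without the 2 that stood apart, the coefficient of variation was 7.16% for miR-24-3p and 15.4% for miR-27a-3p, against a median of 35.5% over the 605 tested entries. By mean level miR-24-3p ranked 30 and miR-27a-3p 79 of the 605, and entries of like level were not compared. The coefficient was 17.6% for miR-27b-3p and 28.3% for miR-23b-3p, and 45.0% for miR-23a-3p, which ranged 5.36-fold between 20.7 and 111 CPM. The scarce miR-27a-5p varied most, at 59.8%. Within each cluster the miR-23 guide thus had the larger coefficient, and the miR-27 guide, from the same primary RNA, the smaller.

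In wild type mice on vehicle, miR-23a-3p ranged from 0 CPM, in replicate 1, to 92.5 CPM, with a median of 69.6 (n = 9). The count of 0 allows up to 6.24 CPM at the depth of that library. In transgenic mice on vehicle it ranged from 35.8 to 111 CPM with a median of 78.3 (n = 7), and on Vorinostat from 12.4 to 92.2 CPM with a median of 58.4 (n = 10). Low and high libraries occurred in every group, so the groups overlapped almost fully. The 24 libraries fell on either side of a gap between 42.7 and 54.5 CPM, with 9 below it and 15 above. Those below came in equal number, 3, from each group, but 8 of the 9 carried the lane label L002, against 4 of the 15 above. This gap was picked after the values were seen, and another lay between 92.5 and 106 CPM. Whether the libraries form separate sets was not tested.

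The fitted lane difference of miR-23a-3p, with group in the model, was -0.54 on the log2 scale (SE 0.34, edgeR adjusted p = 0.352). For miR-23b-3p it was -0.42 (SE 0.26, adjusted p = 0.329) and for miR-27a-5p 1.04 (SE 0.37, adjusted p = 0.188). No member passed this lane test, and 0.165% of the tested entries did. The part of the lane, or of what goes with it, in the spread of miR-23a-3p was not tested further.

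The transgene was examined first, by setting transgenic against wild type mice on vehicle. None of the 10 members passed the edgeR quasi-likelihood test with Benjamini-Hochberg adjustment, and 0.0% of the 605 tested entries did. At an unadjusted p under 0.05 the count was 0 of 10 members with edgeR, DESeq2 or limma voom, while edgeR had 2.15% of all entries there. In such bulk tissue, fewer cells of a type and less RNA per cell cannot be told apart. The median log2 difference of the members was 0.04, against 0.03 over all tested entries, with 6 members higher and 4 lower.

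Among the guides, miR-27b-3p had 872 to 3794 CPM in wild type (median 2806) and 2976 to 3998 CPM in transgenic mice on vehicle (median 3631). All 7 transgenic libraries lay above the wild type mean, but within the wild type range or just beyond it. Its log2 difference was 0.33 (SE 0.20, adjusted p = 0.980), and 0.19 (SE 0.13) without the 2 libraries that stood apart. miR-27a-3p had 162 to 678 CPM in wild type (median 571) and 565 to 664 CPM in transgenic mice (median 612), a log2 difference of 0.19 (SE 0.19). The value was 0.05 (SE 0.13) without wild type replicate 1 and 0.05 (SE 0.12) without both libraries that stood apart.

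Differences of the miR-23 guides were of similar size with wider errors. The log2 difference of miR-23a-3p was 0.39 (SE 0.45), with a 95% interval from -0.53 to 1.31, 0.21 (SE 0.35) without the 2 libraries and 0.24 (SE 0.47) without transgenic vehicle replicate 6. miR-23b-3p had 35.4 to 442 CPM in wild type (median 352) and 256 to 476 CPM in transgenic mice on vehicle (median 378), a log2 difference of 0.19 (SE 0.33). That of miR-23b-3p was 0.01 (SE 0.27) without wild type replicate 1, 0.02 (SE 0.23) without the 2 libraries and 0.10 (SE 0.35) without transgenic vehicle replicate 2. Within the lanes the difference was 0.66 in L001 (SE 0.59) and 0.15 in L002 (SE 0.65) for miR-23a-3p, and 0.39 (SE 0.50) and 0.01 (SE 0.43) for miR-23b-3p. The wild type range enclosed most transgenic values of both miRNAs.

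miR-24-3p had 1261 to 4300 CPM in wild type (median 3888) and 3441 to 4022 CPM in transgenic mice on vehicle (median 3635). Its log2 difference was 0.01 (SE 0.16), with a 95% interval from -0.32 to 0.34. The copy-specific arms miR-24-1-5p and miR-24-2-5p differed by 0.06 (SE 0.17) and -0.06 (SE 0.15). The sign of the miR-24-3p difference changed under several settings, among them leaving out wild type replicate 1, so no direction is given for it.

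**Figure D2:**
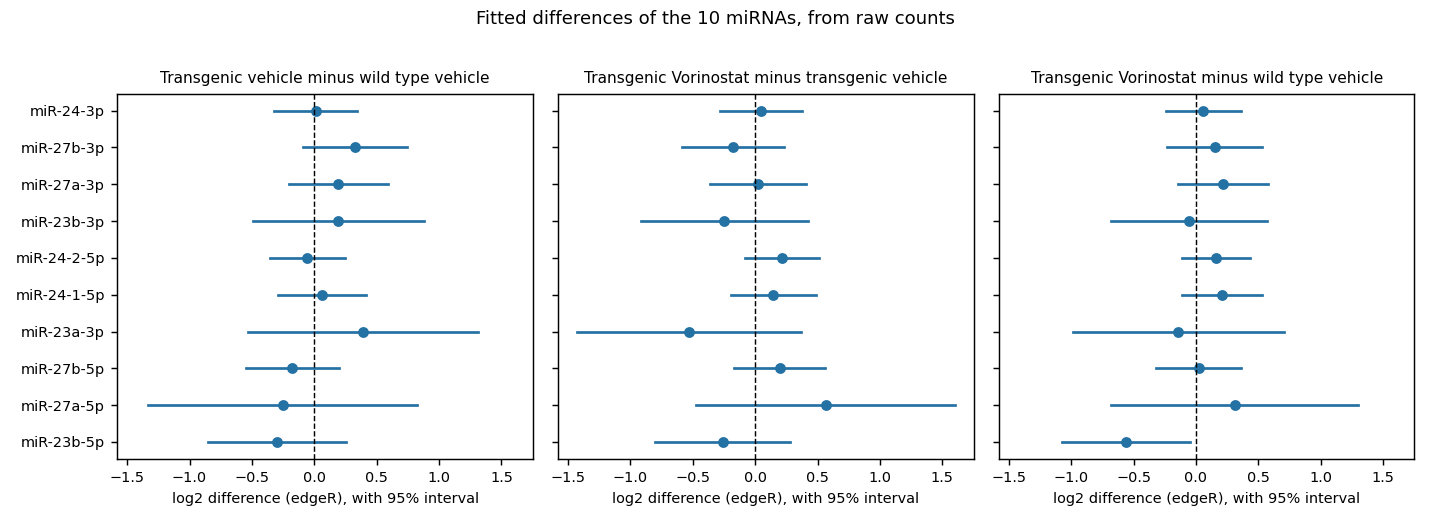
Log2 difference of each miRNA in the 3 comparisons from raw counts (points, edgeR) with its 95% interval (lines). All intervals cross 0 except that of miR-23b-5p for Vorinostat against wild type, from -1.07 to -0.05.

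The effect of Vorinostat was examined between transgenic mice on drug and on vehicle. None of the 10 members passed (edgeR), and 0.0% of the 605 tested entries did. At an unadjusted p under 0.05 the count was 0 of 10 members with edgeR, DESeq2 or limma voom, while edgeR had 3.47% of all entries there. The median log2 difference of the members was 0.04, against -0.01 over all tested entries.

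The miR-23 guides had the lowest fitted values among the 3p arms. The log2 difference of miR-23a-3p was -0.53 (SE 0.44, adjusted p = 0.836), with a 95% interval from -1.43 to 0.36. It was -0.50 within lane L001 (SE 0.64), -0.56 within L002 (SE 0.55) and -0.42 (SE 0.34) without the 2 libraries that stood apart. For miR-23a-3p 1 of 10 Vorinostat libraries lay above the mean of transgenic mice on vehicle. miR-23b-3p had 106 to 411 CPM on Vorinostat (median 368), a log2 difference of -0.25 (SE 0.33, adjusted p = 0.836), and 6 of 10 Vorinostat libraries lay above the vehicle mean. Its value was -0.14 (SE 0.31) without Vorinostat replicate 8, -0.16 (SE 0.35) without transgenic vehicle replicate 2 and -0.16 (SE 0.23) without the 2 libraries that stood apart.

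Replicate numbers 2, 3, 5, 6, 8, 9 and 10 occur in both transgenic groups, and same-numbered libraries deviated together. Within these 7 pairs miR-23a-3p had 106 CPM on vehicle and 62.4 on Vorinostat in pair 2, 78.3 and 66.9 in pair 3, and 111 and 54.5 in pair 6. It had 35.8 and 12.4 CPM in pair 8, 42.7 and 24.3 in pair 9, 36.9 and 20.7 in pair 10, and in the other order, 86.5 and 92.2, in pair 5. The Vorinostat library was thus the lower in 6 of 7 pairs, for miR-23b-3p as well. With the pair as a replicate block the log2 difference was -0.71 for miR-23a-3p (SE 0.19, edgeR adjusted p = 0.0557) and -0.42 for miR-23b-3p (SE 0.17, adjusted p = 0.137). None of the 10 members passed in this blocked fit, and 0.882% of its 567 tested entries did. At an unadjusted p under 0.05 there were 2 of 10 members, where 25.9% of all tested entries were. Both members were lower, where 14.6% of all tested entries were lower at that p. In 6 of the 7 pairs both libraries carried the same lane label, and the sources used here do not say what the number stands for. The pairs were taken from these same values, so whether the number marks a true pair was not tested.

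The miR-27 and miR-24 guides had fitted differences nearer 0. miR-27b-3p had 2227 to 4287 CPM on Vorinostat (median 3240), a log2 difference of -0.18 (SE 0.20). miR-27a-3p had 484 to 945 CPM (median 598), a log2 difference of 0.02 (SE 0.19), and miR-24-3p 2949 to 4184 CPM (median 3845), a log2 difference of 0.05 (SE 0.16). The sign of the last pair of differences turned negative with DESeq2 and with other scalings. Of the 5p arms, miR-27a-5p had the widest interval, from -0.47 to 1.60 around a log2 difference of 0.56, and its value was 0.16 without the 2 libraries that stood apart.

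Vorinostat-treated transgenic mice were also set against wild type mice on vehicle, which share their libraries with the comparisons above. None of the 10 members passed (edgeR), and 0.0% of the 605 tested entries did. At an unadjusted p under 0.05 there was 1 member with edgeR, DESeq2 or limma voom, miR-23b-5p, where edgeR had 3.14% of all entries.

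miR-23b-5p, the scarce arm of miR-23b, had 0 to 4.53 CPM in wild type (median 3.64) and 1.24 to 3.18 CPM on Vorinostat (median 2.41). No Vorinostat library reached the wild type median, and 1 of 10 lay above the wild type mean. The 0 is wild type replicate 1, where the depth allows up to 6.24 CPM, and the next lowest wild type value was 1.73 CPM. With that library the wild type range enclosed that of Vorinostat, and without it the ranges overlapped in part. The log2 difference of miR-23b-5p was -0.56 (SE 0.25, edgeR unadjusted p = 0.0327, adjusted p = 0.9997). It rested on 347 reads in all wild type libraries and 245 in all Vorinostat libraries.

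Ratios within a library do not depend on how that library was scaled. They were taken as log2 of counts with 0.5 added, for 3 pairs of related members and 3 pairs of arms, in 18 exact two-sided permutation tests adjusted together. None of the 18 passed, and the smallest adjusted p was 0.472. The guides from chromosome 13 were the more abundant: miR-23b-3p was 6.06 times miR-23a-3p in the median library and miR-27b-3p was 5.50 times miR-27a-3p. For the copy-specific arms of miR-24 the order was opposite, with miR-24-1-5p, from chromosome 13, at 0.521 of miR-24-2-5p, from chromosome 8.

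The ratio of miR-27b-3p to miR-27a-3p ran from 3.77 to 7.08 over 26 libraries. Its mean log2 value was 2.53 (SD 0.20, n = 7) in transgenic mice on vehicle and 2.33 (SD 0.19, n = 10) on Vorinostat. The difference of -0.20 had an exact permutation p of 0.0528, adjusted p = 0.472. For miR-23b-3p to miR-23a-3p the ratio ran from 3.94 to 9.21 outside wild type replicate 1, where 17 counts stood against 0. Its mean log2 value was 2.42 (SD 0.35, n = 7) in transgenic mice on vehicle and 2.72 (SD 0.30, n = 10) on Vorinostat, a difference of 0.29 (exact permutation p = 0.0836, adjusted p = 0.472).

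Both ratios were also taken within the 7 number-matched pairs, an alternative chosen after seeing the data, with an exact two-sided sign-flip permutation test adjusted over the 6 ratios. The ratio of miR-23b-3p to miR-23a-3p was higher on Vorinostat in 7 of 7 pairs, by 0.03 to 0.91 on the log2 scale. The mean pair difference was 0.30 (SD 0.31), with exact p = 0.0156, the smallest that 7 pairs allow, and adjusted p = 0.0938. The ratio of miR-27b-3p to miR-27a-3p was lower on Vorinostat in 6 of 7 pairs, with a mean pair difference of -0.22 (SD 0.25, exact p = 0.0781, adjusted p = 0.156). None of the 6 ratios passed within pairs. The pair differences in the ratio of miR-23b-3p to miR-23a-3p share their miR-23 counts with the paired values given above.

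The passenger arms stayed rare beside their guides. In the median library miR-23b-5p was at 0.00842 of miR-23b-3p, miR-27a-5p at 0.00741 of miR-27a-3p and miR-27b-5p at 0.00313 of miR-27b-3p. In wild type replicate 1 the share of miR-27a-5p reached 0.134, and in Vorinostat replicate 8 it was 0.0542. These 2 libraries also had the highest values for the other arm pairs, in wild type replicate 1 with a count of 0 for miR-23b-5p.

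**Figure D3:**
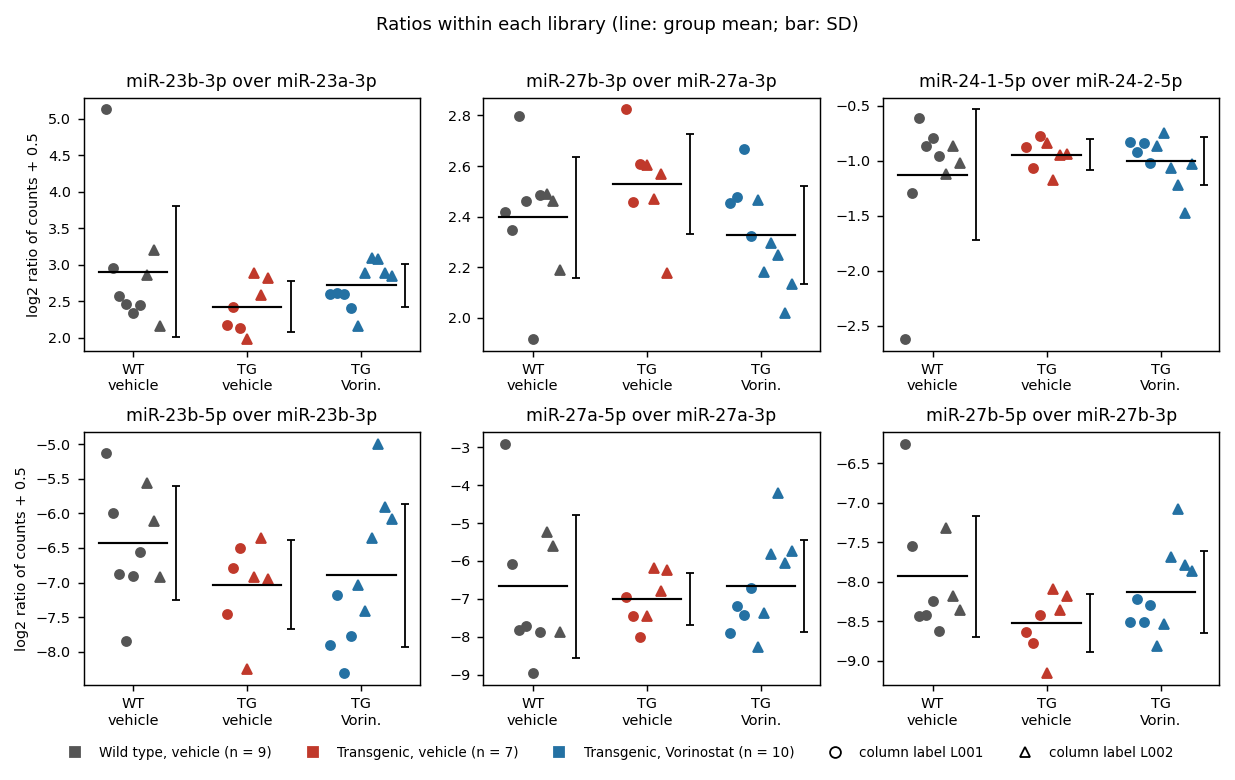
Log2 ratio of counts (0.5 added) within each library for 3 pairs of related members (upper row) and 3 pairs of arms of one hairpin (lower row), 1 point per library, with the group mean as a line and the SD as a bar. The groups overlap in all 6 ratios, and wild type replicate 1 lies far out in 23b-3p over 23a-3p, at 5.13, and in 24-1-5p over 24-2-5p, at -2.62.

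The 5 guides were compared with each other by Pearson's r and Spearman's rho of log2 CPM over the 26 libraries, 10 pairs in all, with p-values from 100000 permutations adjusted over the pairs. miR-23a-3p and miR-23b-3p, which come from different chromosomes, moved together, with r = 0.970 and rho = 0.917 (adjusted permutation p = 2.5e-05 and 1e-04). This was not particular to the pair. By rho miR-369-3p was closer to miR-23a-3p, at 0.966, and miR-17-5p closer to miR-23b-3p, at 0.945. The sequence of miR-23b-3p was not found by name, so the part of reads assigned to the wrong copy was not tested. Without the 2 libraries farthest from the median of miR-23a-3p, r was 0.949. Within lane L001 r was 0.995 (rho 0.692, n = 13), or 0.643 without its 2 farthest libraries, and within L002 r was 0.951 (rho 0.945, n = 13). On either side of the gap in miR-23a-3p given above, r was 0.851 over the 9 low libraries and 0.563 over the 15 high ones. Such a split narrows the range of miR-23a-3p, which by itself can bring r nearer 0.

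Neighbours of one primary RNA were less alike. For miR-23a-3p and miR-27a-3p r was 0.852 (rho 0.492) over 26 libraries but 0.337 without the 2 farthest, and for miR-23b-3p and miR-27b-3p r was 0.902 (rho 0.805) and 0.735 without its 2 farthest. All 10 pairs passed by Pearson's r over 26 libraries. Without the 2 libraries that stood apart 4 pairs passed: 23a-3p with 23b-3p, each of these with 27b-3p, and 27a-3p with 27b-3p. Pearson's r of miR-24-3p with the other guides was 0.752 to 0.859 but rested on wild type replicate 1, since without the 2 libraries r was -0.24 to 0.11 and rho over all 26 was 0.04 to 0.23.

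A relation in the other direction was noticed after the values were seen. It is given as a description without a p-value, since a test on these same libraries would not count that choice. miR-27a-5p was high where miR-23a-3p was low, with r = -0.749 and rho = -0.821 over 26 libraries, and r = -0.824 without the 2 farthest. In lane L002 r was -0.936 and rho -0.835 (n = 13). In lane L001 r was -0.791 but rho -0.396 (n = 13), with r = -0.559 without the 2 farthest. Below the gap in miR-23a-3p r was -0.587 (n = 9) and above it -0.189 (n = 15), both nearer 0 than over all 26 libraries. The split narrows the range of miR-23a-3p, so these values cannot be set against r over all libraries. Its own guide, miR-27a-3p, had r = -0.476 with miR-27a-5p, and -0.190 without the 2 farthest.

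**Figure D4:**
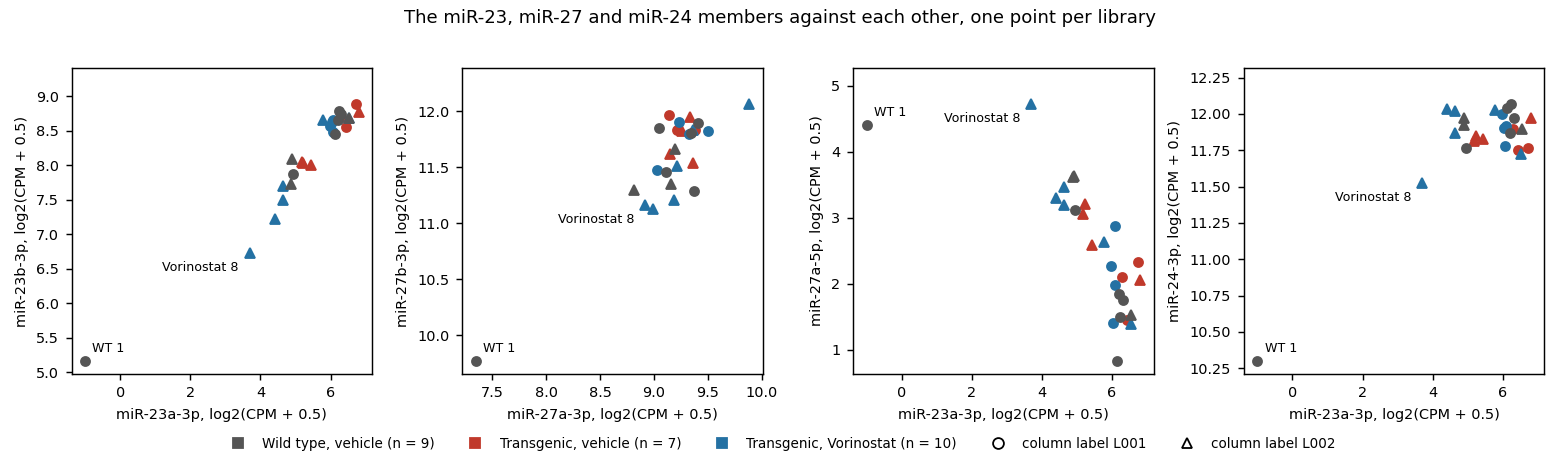
Log2(CPM + 0.5) of 4 pairs of members, 1 point per library, coloured by group and shaped by lane label, with wild type replicate 1 (WT 1) and Vorinostat replicate 8 marked. miR-23b-3p follows miR-23a-3p over the whole range, miR-27a-5p runs against it, and miR-24-3p is level outside the marked libraries.

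miR-23a-3p also followed the main axis along which the libraries differed. Over the 24 libraries its log2 CPM had r = 0.986 and rho = 0.972 with the first principal component of all tested entries, itself included. The value was r = 0.964 for miR-23b-3p and 0.653 for miR-27b-3p, against -0.172 for miR-24-3p and -0.825 for miR-27a-5p. All these share the library and its depth, and they are given as a description. How many of the tested entries follow this component as closely was not counted.

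The miRNAs most like each guide over the 26 libraries, by Spearman's rho among 595 others are given as a description. For miR-23a-3p they were miR-369-3p (rho 0.966), miR-107-3p (0.954) and miR-30c-5p (0.954). For miR-23b-3p they were miR-17-5p (0.945), miR-93-5p (0.925) and miR-30b-5p (0.921), and for miR-27b-3p miR-17-5p (0.891), miR-9-5p (0.888) and miR-103-3p (0.865). The values fell to 0.798 for miR-27a-3p, shared by let-7c-2-3p and let-7a-1-3p, which have identical counts, and then 0.781 for miR-26a-5p. miR-24-3p had no close partner, with miR-425-5p at 0.716, miR-139-5p at 0.529 and miR-22-5p at 0.521.

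The authors' deposited table of normalized values gave another result from the same libraries. It lists 674 miRNAs on a log2 scale, with all 10 members, made by a normalization that the sources used here do not describe. These values were tested with limma. For the transgene 6 of 10 members passed, where 54.3% of the 674 miRNAs did, with 4 members higher and 2 lower, where 34.0% and 20.3% of all were. For Vorinostat in transgenic mice 7 of 10 passed, where 53.4% did, with 1 higher and 6 lower, where 16.5% and 36.9% of all were. The members' share was thus near that of the whole table. Between Vorinostat and wild type 0 of 10 passed, where 0.89% of all did, and 0 of 10 at an unadjusted p under 0.05, where 11.4% of all were. The first 2 comparisons share the transgenic vehicle libraries.

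In the authors' values miR-23a-3p stood at 2.31 to 7.83 in wild type (median 6.81, n = 9), 7.67 to 9.31 in transgenic mice on vehicle (median 8.39, n = 7) and 5.05 to 7.11 on Vorinostat (median 6.51, n = 10). The transgenic groups did not overlap for this miRNA, nor for 13.6% of all miRNAs in the table, and it was the one member with such a gap. For the transgene no member had one, where 7.57% of all miRNAs did. Its log2 difference was 2.02 between transgenic and wild type mice (SE 0.51, limma adjusted p = 0.0043) and -2.06 between Vorinostat and vehicle (SE 0.50, adjusted p = 0.0028). Without the 2 libraries that stood apart the values were 1.51 and -1.92.

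Other members that passed had smaller differences in the authors' values. For genotype these were miR-23b-3p at 0.95 (SE 0.34), miR-27a-3p at 0.63 (SE 0.20), miR-24-1-5p at 0.44 (SE 0.16), miR-27b-5p at -0.36 (SE 0.12) and miR-27a-5p at -1.06 (SE 0.28). For Vorinostat they were miR-23b-3p at -1.19 (SE 0.33), miR-27b-3p at -0.60 (SE 0.20), miR-23b-5p at -0.56 (SE 0.20), miR-27a-3p at -0.51 (SE 0.19), miR-24-3p at -0.44 (SE 0.17) and miR-27a-5p at 1.09 (SE 0.28). Within lane L001 none of the members passed for either, where 0.0% of the 674 miRNAs did. Within L002 3 members passed for genotype, where 22.3% of all did, and 7 for Vorinostat, where 49.7% did. In the replicate block of 7 pairs 8 passed for Vorinostat, where 63.4% of all did.

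The authors' values ordered the libraries differently from the counts. For miR-23a-3p the value exceeded log2(CPM + 0.5) by 1.33 on average in wild type, 2.35 in transgenic mice on vehicle and 0.93 on Vorinostat, a difference between groups that was not tested. Transgenic vehicle replicate 10, with 36.9 CPM, had the second highest normalized value of all 26 libraries. Across the libraries the 2 scales had r = 0.764 and rho = 0.521 for miR-23a-3p (n = 26, adjusted permutation p = 0.00034 for r over 10 members), and r = 0.371 without the 2 farthest libraries. For miR-24-3p rho was 0.153 and r fell from 0.743 to -0.04 without the 2 farthest. By rho the 2 scales were closest for miR-24-2-5p, at 0.738, and its values passed in neither comparison. Whether the group-wise offset comes from the normalization was not tested.

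**Figure D5:**
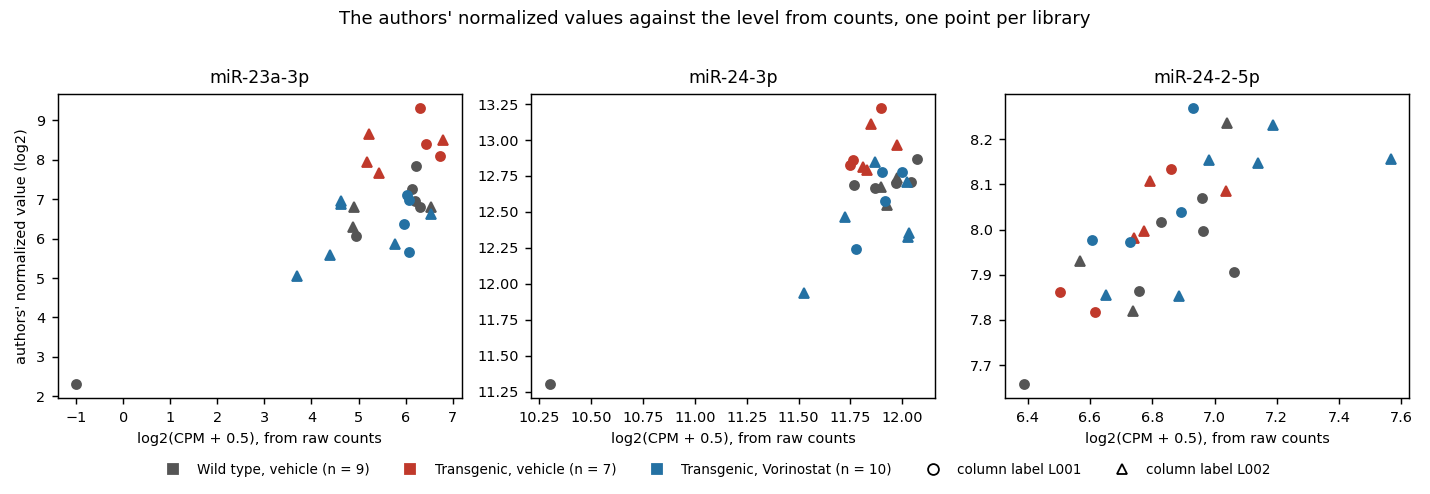
The authors' normalized log2 values against log2(CPM + 0.5) from the raw counts for 3 members, 1 point per library, coloured by group and shaped by lane label. For miR-23a-3p the transgenic vehicle libraries lie above the others at equal CPM, while for miR-24-2-5p the groups mix along 1 trend.

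The authors' deposited table of co-expression modules placed 7 of the 10 members in the module named turquoise and miR-27a-5p, miR-24-2-5p and miR-27b-5p in blue. Turquoise held 404 of the 674 miRNAs, or 59.9%. In that table miR-23a-3p had the highest turquoise membership of the 404, at 0.996 on a scale from -1 to 1, and miR-23b-3p ranked 23, at 0.982. The memberships of miR-24-3p (0.946), miR-27b-3p (0.937) and miR-27a-3p (0.919) were lower, and that of miR-27a-5p was negative, at -0.864. These modules were built by the authors on these libraries, so they are a description of the same values and add no separate evidence.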

How the data were processed

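The 26 CA1 small RNA libraries were of the TruSeq type, read as 50 bp single ends, per the labels' protocols. The authors' deposited table holds raw counts per mature miRNA, and a further deposited table holds normalized log2 values for 674 miRNAs. The deposited module table gives the authors' membership score per miRNA and a p-value for each, which was not used. FastQC 0.11.5 and the genome build mm10 are named in the submitters' processing notes, and the sources used here do not give the aligner, counting settings or normalization.

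Counts were tested with edgeR 4.0.16 (R 4.3.3): trimmed-mean scaling, entries kept by filterByExpr (minimum count 10, total 15), a quasi-likelihood fit of the 3 groups without covariates, and Benjamini-Hochberg adjustment over 605 entries at 0.05. Limma 3.58.1 was used on the authors' values and DESeq2 1.42.0 as an alternative. Design choices followed the group labels, and no covariate is named in them. Ratios and correlations were computed in Python 3.11.15 with scipy 1.17.1, numpy 2.4.6 and pandas 2.3.3, with exact permutation tests for ratios and 100000 permutations for correlations. The fitting script was tested on simulated data. Libraries held 585188 to 24767468 counts, and no library pair was identical.

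Replicate numbers occur in several groups. Deviations from the group means correlated over 0.1 in 7 of 7 same-numbered pairs of transgenic vehicle and Vorinostat libraries (r 0.280 to 0.571), so these were taken as pairs. This held for 4 of 6 pairs of wild type and transgenic vehicle and 5 of 9 of wild type and Vorinostat, which were not. For wild type and Vorinostat r ran from -0.471 to 0.542. No correlation between libraries of unlike number is given for comparison, and 6 of the 7 taken pairs share a lane label. The rule cannot tell a pairing by number from other shared traits, and this was not tested.

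The miRNAs named are the 10 members, for each of 5 guides the 3 others most like it by Spearman's rho, and the 2 most abundant of each marker list (neuron, astrocyte, oligodendrocyte, vessel wall, microglia and leukocyte, red blood cell, choroid plexus, stressed heart, other organs). The 3 heart muscle miRNAs, pair values, the even counts and the gap in miR-23a-3p were singled out after the values were seen. The members and lists were chosen with earlier results of these data known. Alternatives were other scalings, filters and tools, the lane label, the replicate block, and leaving out libraries. The division by loci, the paired ratios and the alternatives on the authors' values were chosen after seeing the data.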

Additional observations from a re-analysis of the deposited data

Results flagged for a closer look

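Samples far from the rest of their group were found in 10 of 48 sets of values. Chance gives about 1 in 20 per set, but these sets share libraries and counts, so an excess over chance was not tested. Wild type replicate 1, the shallowest library, gave 6 of these 10, on the low side in all but the first ratio below. It had 162 CPM of miR-27a-3p (others 448 to 678), 1261 of miR-24-3p (others 3479 to 4300), 20.8 of miR-24-1-5p (others 46.3 to 68.1) and 872 of miR-27b-3p (others 2502 to 3794). Its log2 ratio of miR-23b-3p to miR-23a-3p was 5.13 (others 2.15 to 3.20), and that of miR-24-1-5p to miR-24-2-5p was -2.62 (others -1.29 to -0.61).

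In the Vorinostat group, replicate 6 had 945 CPM of miR-27a-3p (others 484 to 723) and 86.7 of miR-24-1-5p (others 50.6 to 68.7). Replicate 8 had 26.1 CPM of miR-27a-5p (others 2.11 to 10.5), and replicate 9 had 188.9 CPM of miR-24-2-5p (others 96.9 to 145).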

How the results depend on the processing

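None of the 10 members passed in any of the 3 comparisons of counts under the alternative scalings, filters and count tools, with the lane label, in the replicate block, or with any library left out. The smallest adjusted p of a member over these settings was 0.0557, for miR-23a-3p under Vorinostat in the replicate block of 7 pairs, where 5 of 567 entries passed against 0 of 605 without it. The authors' values gave 6 passing members for genotype, where 54.3% of the 674 miRNAs passed, and 7 for Vorinostat, where 53.4% did. Of 394 alternative member values, 337 kept direction and call, 46 changed sign and 11 kept direction but passed the threshold; those 11, and 2 of the 46, came to 13 that passed, all in the authors' values. The 27b-3p difference under Vorinostat was -0.27 (SE 0.22) without transgenic vehicle replicate 8. The shallow wild type replicate 1 and the fewer than 5 CPM of miR-23b-5p limit what could be seen.

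The changes of sign were mainly in values near 0, and their cause was not tested. With DESeq2's size factors in edgeR the Vorinostat difference was -0.0227 for miR-24-3p and -0.0443 for miR-27a-3p, and against wild type -0.00561 for miR-24-3p and -0.0432 for miR-27b-5p. With library totals the same 4 values were -0.0861, -0.111, -0.0535 and -0.0915, and with DESeq2 -0.0226, -0.0442, -0.0063 and -0.0508. Without a filter miR-27a-3p under Vorinostat was -0.00931, with a mean of at least 10 CPM miR-24-3p for genotype was -0.0268, and with voom miR-27a-5p for genotype was 0.146. The authors' values gave 0.262 for miR-23b-5p and 0.0538 for miR-24-2-5p (genotype), -0.311 for miR-24-1-5p, -0.441 for miR-24-3p and -0.508 for miR-27a-3p (Vorinostat), and -0.0418 for miR-24-3p, -0.192 for miR-27b-5p and -0.133 for miR-27b-3p (Vorinostat against wild type).

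With lane as a covariate miR-24-3p for genotype was -0.00102, and against wild type miR-23b-3p was 0.0155, miR-27b-5p -0.00763 and, in the authors' values, miR-27a-5p -0.00828. Within L001 miR-23b-5p was 0.13 and miR-24-1-5p -0.00244 for genotype, miR-27a-3p -0.00929 for Vorinostat, and against wild type miR-23a-3p 0.162, miR-23b-3p 0.215, miR-24-2-5p -0.0623, miR-27a-5p -0.102 and miR-27b-5p -0.0864. The authors' values there passed for 0 members, and 0.0% of all miRNAs, in either transgenic comparison and gave, against wild type, 0.327 for miR-23a-3p, 0.11 for miR-23b-3p and 0.105 for miR-24-3p. Log2 ratios within L001 differed by 0.0766 (27b-3p/27a-3p) and -0.42 (27a-5p/27a-3p) against wild type and -0.877 (23b-5p/23b-3p) for Vorinostat. Within L002 miR-24-3p was -0.0751 and miR-24-2-5p 0.0337 for genotype, miR-23b-5p 0.288 and miR-24-3p -0.00447 for Vorinostat, and miR-24-3p -0.0796 and miR-27b-5p -0.013 against wild type. In L002 the authors' values passed for 3 members for genotype, where 22.3% of all miRNAs did, and gave -0.0537 for miR-27a-5p against wild type, the ratios 23b-3p/23a-3p and 24-1-5p/24-2-5p against wild type were 0.0855 and -0.0654, and 5 correlations passed.

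In the replicate block over all libraries miR-24-3p was -0.0288 and miR-27a-5p 0.0398 for genotype, and the block changed no call of a member on counts or of a ratio. Without wild type replicate 1 and Vorinostat replicate 8, miR-24-1-5p was -0.0464 and miR-24-3p -0.122 for genotype, and miR-24-3p -0.0554 and miR-27b-5p -0.0897 against wild type. The log2 ratios were 0.053 for 23b-3p/23a-3p against wild type, -0.00361 and -0.0375 for 24-1-5p/24-2-5p (genotype and against wild type), -0.0771 for 23b-5p/23b-3p (Vorinostat) and 0.14 for 27a-5p/27a-3p (genotype). There 4 correlations passed, and r with miR-24-3p was -0.174 for miR-23a-3p, -0.123 for miR-23b-3p and -0.235 for miR-27b-3p. With 1 added to each count 27a-5p/27a-3p against wild type was -0.0041, and with none added 23b-3p/23a-3p was 0.0951.

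With each library left out in turn, genotype values ran from -0.048 to 0.118 for miR-24-1-5p, -0.125 to 0.0511 for miR-24-3p and -0.109 to 0.0168 for miR-24-2-5p, and Vorinostat values from -0.0264 to 0.0845 for miR-24-3p and -0.0616 to 0.0612 for miR-27a-3p. Against wild type they ran from -0.0942 to 0.0969 for miR-24-3p, -0.0867 to 0.0918 for miR-27b-5p, -0.00695 to 0.196 for miR-27b-3p, -0.243 to 0.0465 for miR-23b-3p and -0.0662 to 0.523 for miR-27a-5p. In the authors' values against wild type they ran from -0.00228 to 0.179 for miR-24-1-5p, -0.0553 to 0.183 for miR-27a-3p, -0.545 to 0.146 for miR-23a-3p, -0.0937 to 0.198 for miR-27a-5p and -0.197 to 0.0207 for miR-24-3p, and 5 to 8 members passed for genotype, where 45.7% to 58.5% of all miRNAs did, and 5 to 8 for Vorinostat, where 47.2% to 60.4% did. Log2 ratios ran from -0.279 to 0.0932 (23b-3p/23a-3p), -0.0613 to 0.19 (24-1-5p/24-2-5p), -0.281 to 0.477 (27a-5p/27a-3p) and -0.315 to 0.0111 (27b-5p/27b-3p) against wild type, -0.00361 to 0.248 (24-1-5p/24-2-5p) and -0.618 to 0.14 (27a-5p/27a-3p) for genotype, and -0.0771 to 0.292 (23b-5p/23b-3p) for Vorinostat.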

Other observations

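The hairpins of miR-24 lie opposite those of miR-3074, which is read from the other strand of the same bases. miR-3074-5p had 853 reads in 25 of the 26 libraries. The arm miR-3074-1-3p had 45 reads in 17 libraries, and miR-3074-2-3p had 0. The sources used here do not say whether the counting used strand.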
